A study of Gallus gallus with 6 samples.

Results

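The forkhead, KLF and SP genes form 3 families of transcription factors, and their RNA levels were compared here between lens epithelial cells and lens fiber cells of the chick. The members were all entries of the expression table whose gene symbol was that of a forkhead gene (FOX and a letter from A to S with a number), a KLF gene or an SP gene. The rule found 47 of 16561 entries, namely 25 forkhead genes, 13 KLF genes and 9 SP genes. No entry carried the symbol FOXE3 or FOXC1, forkhead genes with known roles in the eye, so neither could be analysed here. Lenses were taken from White Leghorn chick embryos at embryonic day 13, with no treatment, and were microdissected by hand into the anterior epithelium and the fiber cell mass. Each library held RNA pooled from several lenses, and each cell type had 3 biological replicates, so the 6 libraries give 3 values per gene for each cell type. The epithelial pools held central and equatorial epithelium together, and the fiber pools held peripheral and central fibers together. The study searched regions with altered DNA methylation for motifs of transcription factors and asked how strongly such factors were expressed. The comparison below gives the RNA levels of these 3 families. The paper lists FOXP1 among factors whose genes were lower and more methylated in fiber cells and whose motifs were enriched in such regions. Which members have motifs in such regions was not examined here.

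Forkhead proteins bind DNA through a winged helix. They range from factors present in most cells, such as the FOXK and FOXN proteins, to factors that specify one tissue. FOXO proteins are held in the cytoplasm when growth factor signaling through PI3K and AKT is active, and FOXM1 drives genes needed for mitosis. FOXE3 is best known for keeping the lens epithelium in cycle and undifferentiated in mammals. KLF and SP proteins share a C-terminal set of C2H2 zinc fingers that recognizes GC boxes and CACCC boxes, which are common in promoters. Within this group SP1, SP3 and SP4 carry glutamine-rich activation regions, KLF3, KLF8 and KLF12 recruit the corepressor CtBP, and KLF10, KLF11 and KLF13 recruit the corepressor SIN3A. Lens fiber cells leave the cell cycle, elongate, fill with crystallins and finally lose their nuclei.

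Levels are in FPKM, a level normalized for transcript length and for the size of the library, and a level of 1 FPKM or more in the mean of a cell type was called expressed. Differences are given as the log2 fold change of log2(FPKM + 0.1), fiber minus epithelial, with its standard error (SE), and were fitted with limma across all 10818 entries whose 6 libraries averaged 0.5 FPKM or more. A gene was called higher or lower in fiber cells when the limma p, adjusted by Benjamini-Hochberg over all of these entries, was under 0.05 and the log2 fold change was over 0.4 in size. An entry could pass the filter through 1 cell type alone. Among others, KLF13, PLK1, NEK2, CENPF, BIRC5, BCL6, PDK4, TK1 and SLC45A2 had fiber means under 0.5 FPKM. HBAA, HBZ and CD3E had epithelial means under 0.5 FPKM. Since FPKM is a share of a library, a few very abundant transcripts can move all other values. The δ-crystallin entry took 2.07% to 3.44% of the summed FPKM of the epithelial libraries and 9.43% to 10.004% of that of the fiber libraries, and the middle of the log2 fold changes, taken over all tested entries, was −0.62 (the median gene); the part of δ-crystallin in this shift was not tested. For each tested member the difference is therefore given also relative to the median gene, after the median of every library was subtracted. Values of listed pathway genes are as deposited, with counts of calls on both scales. Of the tested entries, 1685 share all their values with another entry. Among the genes named below these include FOXP2, SGK1, OGT, HDAC1, FBXW7 and TRPM1, whose reads cannot be assigned to them alone. As deposited, 81.5% of all called entries were lower in fiber cells, against 49.3% on centred values. In each cell type fewer cells of one kind and less RNA per cell cannot be told apart.

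Fiber markers followed the labels of the libraries, and epithelial markers did so only in part. Of 9 fiber markers tested 8 were called higher in fiber cells, beside 13.1% of all tested entries. The fiber markers summed to 1594 to 2826 FPKM in epithelial libraries and 10507 to 11649 FPKM in fiber libraries. Of 7 epithelial markers tested 5 were called lower in fiber cells, among them PAX6 and PDGFRA, beside 57.7% of all tested entries. DKK3 and LAMA1, the other 2, were called higher, beside 13.1%. Relative to the median gene 4 of the 7 were lower and 2 higher, beside 29.3% and 30.2% of all tested entries. Replicates of a cell type correlated at r = 0.976 to 0.982 across genes and libraries of different cell types at 0.745 to 0.822, where genes are not independent. Markers of other cell types were mostly low, and some of their sums moved with the groups. The 9 pigment cell markers summed to 32.9 to 36.2 FPKM in epithelial and 10.03 to 13.5 FPKM in fiber libraries. TRPM1 alone made up 29.1 and 9.34 FPKM of this in the mean. SLC45A2 stood at 1.51 and 0.219 FPKM and MITF at 1.73 and 1.71 FPKM, with TYR, TYRP1, DCT, MLANA, OCA2 and PMEL below 1 FPKM. Of the 4 pigment markers tested, SLC45A2 (log2 fold change −2.37) and TRPM1 (−1.63) fell, and MITF and PMEL were not called. The 7 endothelial markers summed to 2.87 to 4.06 and 0.729 to 1.31 FPKM, with ERG at the floor throughout. The 11 erythrocyte markers summed to 1.68 to 2.13 FPKM in epithelial and 8.73 to 14.8 FPKM in fiber libraries, with HBBR, HBE and RHAG at the floor throughout; of the 3 tested, HBZ and HBAA rose and EPB42 fell (log2 fold change −1.53). Muscle markers (9) summed to 3.32 to 3.65 and 1.49 to 1.83 FPKM, and neural retina markers (8) to 2.36 to 2.98 and 5.94 to 8.49 FPKM. Periocular mesenchyme markers (10) summed to 7.29 to 8.95 and 7.53 to 8.03 FPKM, with overlap. Of the 4 tested, DCN rose, KERA and PDGFRB fell and COL3A1 was not called. Leukocyte markers (8) summed to 5.68 to 6.82 and 5.001 to 5.57 FPKM. The 2 tested moved in opposite directions. CD3E rose from 0.0725 to 2.55 FPKM and CD74 fell from 4.89 to 2.11 FPKM. The part of these cells in the results below was not tested.

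In lens epithelial cells 21 of the 47 members were expressed, and 19 of these were also expressed in lens fiber cells, with no member expressed in fiber cells only. The 21 were 10 forkhead genes, 7 KLF genes and 4 SP genes, and the 2 that dropped below 1 FPKM were FOXP2 and KLF8. Of the 22 members that passed the filter on low values, 15 fell in fiber cells, 1 rose (KLF3) and 6 were not called, where 57.7% of all tested entries were called lower and 13.1% higher. The 15 are 68.2% of the tested members, near that background. They include KLF13, which passed the filter only through its epithelial libraries. By family, 9 of 10 forkhead genes, 3 of 8 KLF genes and 3 of 4 SP genes fell. The median log2 fold change was −0.89 for the forkhead genes, −0.46 for the KLF genes and −1.07 for the SP genes, beside −0.62 for all tested entries. Relative to the median gene, 6 members were called lower (FOXM1, FOXO3, FOXP1, FOXP2, SP3 and SP4) and 4 higher (FOXP4, KLF3, KLF6 and SP2), or 27.3% and 18.2% of those tested, where 29.3% of all tested entries were lower and 30.2% higher. In 15 tested members every fiber library lay below every epithelial library and in 1 above, with 63.6% and 16.1% of all tested entries doing so.

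**Figure D1:**
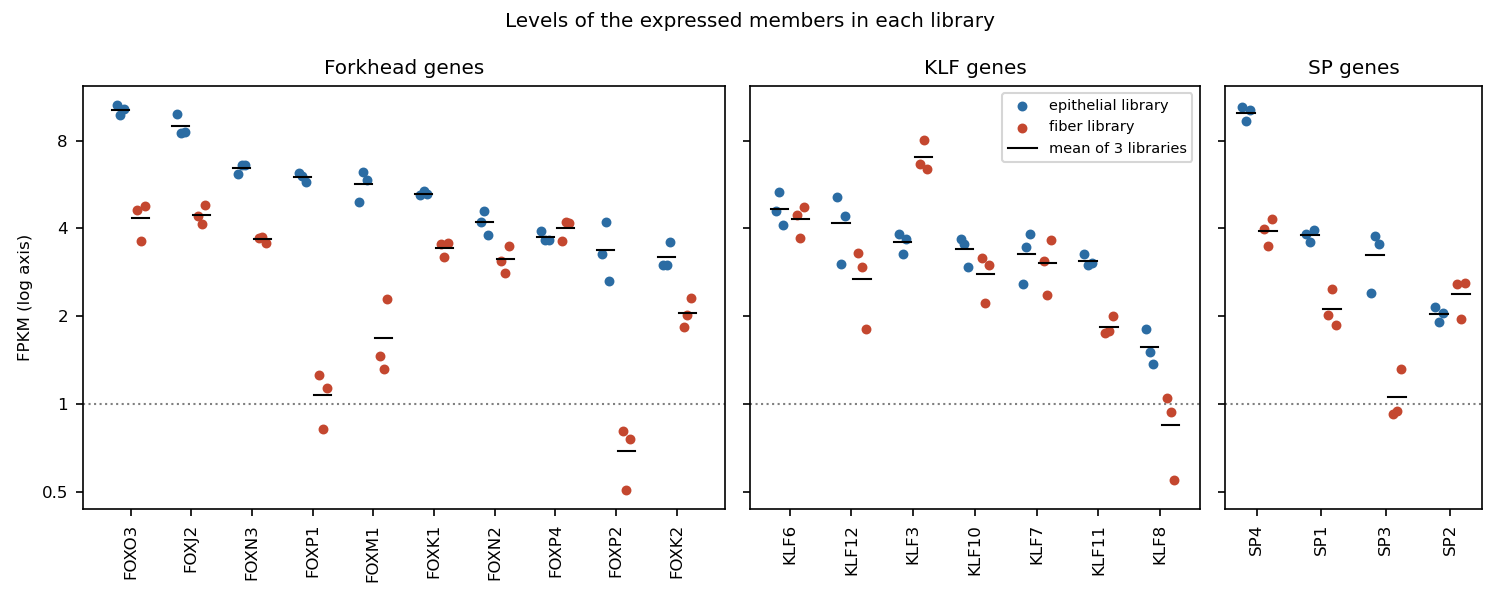
FPKM on a log axis for the 21 expressed members, each point 1 library (blue, 3 epithelial; red, 3 fiber) and each short line the mean of 3 libraries; the dotted line marks 1 FPKM. FOXO3 and SP4 lead the epithelial libraries, KLF3 leads the fiber libraries, and FOXP1, FOXP2, FOXM1 and SP3 show wide gaps between the cell types.

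The summed level of the 25 forkhead members, which do not include FOXE3 or FOXC1, was 58.7 ± 0.771 FPKM (SD, n = 3) in lens epithelial cells. In lens fiber cells it was 29.5 ± 2.51 FPKM, or 50.3% of the epithelial sum. The SP genes summed to 19.5 ± 0.577 and 9.68 ± 0.544 FPKM, the fiber sum being 49.7% of the epithelial one. The KLF genes summed to 25.5 ± 1.17 and 23.1 ± 0.836 FPKM, or 90.4%. For each of the 3 sums the fiber libraries lay below the epithelial libraries, as they did for 63.6% of single tested entries. The sums are as deposited, so their direction can depend on the scaling. Relative to the median gene, the median of the tested members was −0.29 for the forkhead, 0.15 for the KLF and −0.47 for the SP genes. These sums were not tested.

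The FOXP genes, repressors with a zinc finger and a leucine zipper through which they form dimers with each other, held the 2 largest changes among the members, but FOXP4 was not called. FOXP1, a repressor known from lung, heart and lymphocyte development, stood at 6.18, 6.04 and 5.76 FPKM in epithelial libraries 1 to 3 and at 1.26, 0.819 and 1.13 FPKM in fiber libraries 1 to 3. Every fiber library was far below every epithelial library, and the mean fell from 5.99 ± 0.211 to 1.07 ± 0.226 FPKM (SD, n = 3 each), that is to 17.8% of the epithelial mean. The log2 fold change was −2.40 (SE 0.16, adjusted p = 8.56e-06 by limma), and it was −1.79 relative to the median gene. A lower log2 fold change was found in 5.67% of all tested entries.

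FOXP2, known for its role in neural circuits for vocalization, stood at 3.26, 4.22 and 2.64 FPKM in epithelial libraries and at 0.808, 0.506 and 0.760 FPKM in fiber libraries. The groups did not overlap, although the epithelial libraries spread more than for FOXP1. Its log2 fold change was −2.13 (SE 0.23, adjusted p = 6.81e-05 by limma) and −1.52 relative to the median gene. The table holds an unnamed entry with the same values as FOXP2, so its reads cannot be assigned to FOXP2 alone.

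FOXP4 is the remaining member with this structure in the table. It stood at 3.91, 3.64 and 3.65 FPKM in epithelial libraries and at 3.62, 4.21 and 4.16 FPKM in fiber libraries, and the groups overlapped. The log2 fold change of 0.09 (95% interval −0.16 to 0.34, adjusted p = 0.460 by limma) was not called, and relative to the median gene it was 0.70 (adjusted p = 0.000828 by limma) and was called higher. The order of the 3 FOXP genes differed between the cell types. FOXP1 held 45.8 ± 2.21% of their summed level in epithelial cells and 18.5 ± 3.68% in fiber cells. FOXP4 held 28.6 ± 2.13% in epithelial cells and 69.5 ± 6.25% in fiber cells. The ratio of FOXP4 to FOXP1, which does not depend on how a library is scaled, was 0.624 ± 0.0175 in epithelial and 3.90 ± 1.15 in fiber libraries, with no overlap. The exact permutation test gave p = 0.1, two-sided, the smallest that 3 against 3 libraries allow, and 0.160 after adjustment over the 16 ratios of related members that were computed. A ratio restates in part the changes of its 2 genes. How often ratios of other gene pairs separate the cell types was not computed. The ratio of FOXP1 to FOXP2 was 1.84 ± 0.379 and 1.55 ± 0.0659, with overlap (exact permutation p = 0.4, adjusted 0.492).

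FOXM1, the forkhead activator of genes for the G2 phase and mitosis, was the third of the forkhead genes by size of change. It stood at 4.92, 6.22 and 5.86 FPKM in epithelial libraries and at 1.46, 1.31 and 2.29 FPKM in fiber libraries. The groups were well apart, with fiber library 3 the highest of its group. The log2 fold change was −1.72 (SE 0.21, adjusted p = 0.000126 by limma) and −1.11 relative to the median gene. Of 12 genes listed as known FOXM1 targets and tested, 9 fell and 1 rose, beside 57.7% and 13.1% of all tested entries. Their median log2 fold change was −1.72 beside −0.62 for all tested entries. Relative to the median gene the same 9 were lower and the other 3 higher, beside 29.3% and 30.2% of all tested entries. The 4 with the largest changes were PLK1, a mitotic kinase (−4.35), NEK2, a kinase of centrosome separation (−3.97), CENPF, a kinetochore protein (−3.85), and BIRC5, a subunit of the chromosomal passenger complex (−3.14). The 1 that rose, named after its values were seen, was CDC20, an activator of the anaphase-promoting complex, from 2.40 to 7.60 FPKM (log2 fold change 1.63, SE 0.11). FOXM1 was detected above 1 FPKM in each fiber library. Of these 12 targets, 6 had fiber means of 1 FPKM or more, among them CCNB1 at 9.98 FPKM. PLK1, NEK2 and CENPF were among those below, with fiber means of 0.178, 0.128 and 0.119 FPKM. They passed the filter on low values only through the epithelial libraries.

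FOXO3, which in its unphosphorylated form activates genes of cell cycle arrest, autophagy and oxidative defense, was the most abundant of the 25 forkhead members in lens epithelial cells. FOXE3 is not among these members. It stood at 10.6, 9.75 and 10.3 FPKM in epithelial libraries and at 4.63, 3.61 and 4.76 FPKM in fiber libraries. The groups did not overlap, and the fiber mean was 42.5% of the epithelial mean. The log2 fold change was −1.23 (SE 0.12, adjusted p = 5.11e-05 by limma) and −0.62 relative to the median gene. FOXO1, the best known FOXO gene of insulin signaling, was below 1 FPKM in both cell types, at 0.227, 0.217 and 0.233 FPKM in epithelial and 0.0085, 0.0214 and 0.0699 FPKM in fiber libraries. FOXO6 was also below 1 FPKM, at 0.310 to 0.712 FPKM in epithelial and 0.0854 to 0.348 FPKM in fiber libraries, and its groups overlapped. FOXO3 was thus the only FOXO gene of the table above the 1 FPKM level.

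The 14 listed genes that act on FOXO proteins, from PI3K and AKT to SGK and the deacetylase SIRT1, were expressed in both cell types with the exception of SGK1 in fiber cells. Of these 10 fell and none rose, beside 57.7% and 13.1% of all tested entries. The list median was −0.67, close to the −0.62 of all tested entries. Relative to the median gene 2 were lower and 4 higher, beside 29.3% and 30.2% of all tested entries. The 4 largest changes were those of SGK1, a kinase that phosphorylates FOXO3 (−2.39), MAPK8, the stress kinase JNK1 (−1.13), and the catalytic PI3K subunits PIK3CB (−0.99) and PIK3CA (−0.90). Of 17 tested genes listed as FOXO targets, 11 fell and 4 rose, beside the same 57.7% and 13.1%. Their median was −0.79, and relative to the median gene 8 were lower and 5 higher, beside 29.3% and 30.2%. BCL6, a transcriptional repressor (−3.04), TNFSF10, the death ligand TRAIL (−2.39), and PDK4, a kinase that limits pyruvate oxidation (−1.89), fell, whereas GADD45A, a stress protein of growth arrest, rose from 34.7 to 162 FPKM (2.21, SE 0.09). Members of this list therefore moved in both directions.

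The other expressed forkhead genes were not called relative to the median gene. FOXJ2, a widely expressed activator, stood at 9.85, 8.47 and 8.56 FPKM in epithelial and at 4.41, 4.13 and 4.80 FPKM in fiber libraries, a log2 fold change of −0.99 (SE 0.11, adjusted p = 7.20e-05 by limma). It was the most abundant of the forkhead members in the mean of the fiber libraries, 4.45 ± 0.339 against 4.33 ± 0.629 FPKM for FOXO3, although this gap is within the spread of the libraries. Relative to the median gene it was −0.39 (adjusted p = 0.00574 by limma), just under the size that a call needs, and it was called lower with 75th percentile scaling (−0.69) and quantile normalization (−0.60).

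FOXN3, a repressor tied to the DNA damage checkpoint, stood at 6.13, 6.60 and 6.57 FPKM in epithelial and at 3.69, 3.73 and 3.57 FPKM in fiber libraries. The groups were tight and apart, with a log2 fold change of −0.79 (SE 0.09, adjusted p = 0.000111 by limma), which was −0.19 relative to the median gene and not called there. FOXN2, its close relative, stood at 4.21, 4.59 and 3.78 FPKM and at 3.10, 2.81 and 3.49 FPKM. Its log2 fold change of −0.41 (SE 0.13, adjusted p = 0.0175 by limma) lay just past the threshold, and without epithelial library 2 or fiber library 2 it was −0.35 or −0.34 and was not called. Relative to the median gene it was 0.20 and not called. The ratio of FOXN2 to FOXN3 was 0.653 ± 0.0670 in epithelial and 0.855 ± 0.113 in fiber libraries, without overlap (exact permutation p = 0.1, adjusted 0.160).

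FOXK1 and FOXK2, forkhead proteins that bind the SIN3A corepressor and the BAP1 complex and regulate autophagy and glycolysis genes, tracked the median gene. FOXK1 stood at 5.18, 5.37 and 5.24 FPKM in epithelial and at 3.53, 3.19 and 3.57 FPKM in fiber libraries. FOXK2 stood at 2.98, 2.99 and 3.58 FPKM and at 1.83, 2.01 and 2.32 FPKM. Neither gene's groups overlapped, and both had a log2 fold change of −0.61 (SE 0.10 and 0.14, adjusted p = 0.000689 and 0.00406 by limma). Relative to the median gene the values were 0.00 and −0.00. The ratio of FOXK1 to FOXK2 was 1.67 ± 0.177 in epithelial and 1.68 ± 0.208 in fiber libraries (exact permutation p = 1, adjusted 1). Of 9 tested genes listed as partners of forkhead proteins, 7 fell and none rose, beside 57.7% and 13.1% of all tested entries. Their median was −1.18. Relative to the median gene 5 were lower and none higher, beside 29.3% and 30.2% of all tested entries. The largest changes were those of OGT, the O-GlcNAc transferase that joins BAP1 (−1.87), SMAD3, a mediator of TGFβ signaling (−1.81), SIN3A (−1.62) and CTBP1 (−1.21).

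Of the 13 listed lens genes tied to FOXE3, 11 were tested, with a median of −0.81. The list was not divided into genes upstream and downstream of FOXE3. Of these 8 fell and 1 rose, beside 57.7% and 13.1% of all tested entries. The largest changes were those of PDGFRA, a growth factor receptor of the lens epithelium (−2.64), and the transcription regulators PAX6 (−2.18), MAB21L1 (−2.01) and TFAP2A (−1.57). The 1 that rose was PITX3, named after its values were seen (0.46, SE 0.14). Relative to the median gene 5 of the 11 were lower and 3 higher, beside 29.3% and 30.2% of all tested entries. PAX6, PDGFRA, TFAP2A and CDH1 of this list are also among the epithelial markers above.

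**Figure D2:**
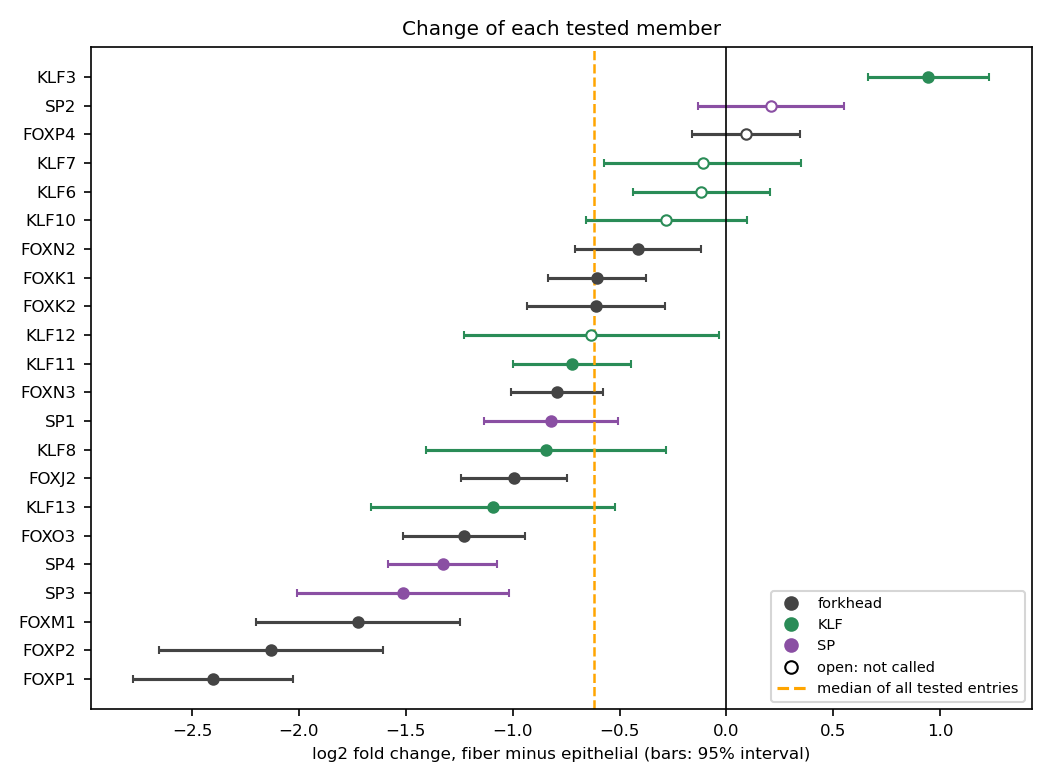
Log2 fold change (fiber minus epithelial) of the 22 tested members with 95% intervals, coloured by family; filled points were called by limma and open points were not, and the dashed line is the median of all tested entries (−0.62). FOXP1, FOXP2 and FOXM1 lie at the low end, KLF3 alone lies to the right of 0 with its whole interval, and FOXK1 and FOXK2 lie on the dashed line.

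KLF3 was the one member that rose in lens fiber cells. KLF3 is a CtBP-dependent repressor known from erythroid, fat and B cells. It stood at 3.83, 3.27 and 3.67 FPKM in epithelial libraries and at 6.65, 8.04 and 6.39 FPKM in fiber libraries. All fiber libraries were above all epithelial libraries, and the mean rose from 3.59 ± 0.287 to 7.03 ± 0.891 FPKM, 1.96-fold. The log2 fold change was 0.95 (SE 0.12, adjusted p = 0.000196 by limma) and 1.55 relative to the median gene, and 93.1% of all tested entries had a lower one. KLF3 held 14.05 ± 0.783% of the summed KLF level in epithelial cells, behind KLF6 and KLF12, and 30.5 ± 4.54% in fiber cells, where it was the most abundant of all 47 members. Of the erythrocyte markers, HBZ and HBAA rose in fiber libraries to means of 6.51 and 4.28 FPKM and EPB42 fell from 1.77 to 0.569 FPKM. HBAD, which did not pass the filter, was higher in every fiber library (means 0.0317 and 0.679 FPKM). HBBA and HBE1 overlapped, but they share their values (means 0.0273 and 0.0336 FPKM) and are not separate measurements. TAL1 (0.00837 and 0.0001 FPKM) and SLC4A1 (0.0122 and 0.00253 FPKM) were very low in both cell types, and RHAG was at the floor. The part of erythroid cells in the level of KLF3 was not tested.

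The other KLF genes that recruit CtBP were not called higher. KLF8, which has been tied to cell migration, stood at 1.81, 1.502 and 1.37 FPKM in epithelial and at 1.05, 0.939 and 0.550 FPKM in fiber libraries. The groups did not overlap and KLF8 fell by 0.85 on the log2 scale (SE 0.24, adjusted p = 0.0125 by limma), a change not called relative to the median gene (−0.24). KLF12, a repressor of the AP-2α gene TFAP2A, stood at 5.12, 3.02 and 4.39 FPKM and at 3.28, 2.94 and 1.81 FPKM.

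The groups of KLF12 overlapped, and its log2 fold change of −0.63 (95% interval −1.23 to −0.04, adjusted p = 0.0526 by limma) was not called. It was −0.84 without epithelial library 2 and −0.79 without fiber library 1, and was called lower in both cases, while relative to the median gene it was −0.02 and not called. The ratio of KLF3 to KLF12 was 0.889 ± 0.175 in epithelial and 2.76 ± 0.751 in fiber libraries, and that of KLF3 to KLF8 was 2.32 ± 0.310 and 8.84 ± 2.66. Both ratios separated the cell types (exact permutation p = 0.1, adjusted 0.160, for each), but both contain KLF3 and are not independent. Of the 13 listed cofactors of KLF and SP proteins, 8 fell and none rose, beside 57.7% and 13.1% of all tested entries. The list median was −1.21. Relative to the median gene 7 were lower and 1 higher, beside 29.3% and 30.2% of all tested entries. The largest changes were those of SIN3A (−1.62), the deacetylases HDAC2 (−1.43) and HDAC1 (−1.39) and the acetyltransferase CREBBP (−1.40). CTBP1 and CTBP2, named here because KLF3, KLF8 and KLF12 bind them, fell by 1.21 (SE 0.16) and 1.29 (SE 0.11) on the log2 scale.

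The SIN3A-binding members KLF10, KLF11 and KLF13 were unequal. KLF10, a target of TGFβ signaling, stood at 3.68, 3.54 and 2.95 FPKM in epithelial and at 3.17, 2.22 and 2.99 FPKM in fiber libraries, with overlap. Its log2 fold change of −0.28 (95% interval −0.66 to 0.10, adjusted p = 0.150 by limma) was not called, nor was the 0.33 relative to the median gene. KLF11, its nearest relative, stood at 3.26, 2.98 and 3.04 FPKM and at 1.74, 1.78 and 1.999 FPKM, without overlap. KLF11 fell by 0.72 on the log2 scale (SE 0.12, adjusted p = 0.000752 by limma), close to the median gene (−0.11 relative to it). The ratio of KLF10 to KLF11 was 1.10 ± 0.112 in epithelial and 1.52 ± 0.285 in fiber libraries (exact permutation p = 0.1, adjusted 0.160). KLF13, which did not reach 1 FPKM in the mean of either cell type, stood at 1.24, 0.850 and 0.719 FPKM and at 0.414, 0.313 and 0.407 FPKM and fell by 1.09 on the log2 scale (SE 0.25, adjusted p = 0.00387 by limma), a call lost relative to the median gene (−0.48, adjusted p = 0.0935 by limma).

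KLF6 and KLF7, activators that share the same N-terminal acidic region, were not called in either direction as deposited. KLF6, an injury-induced factor known for the regrowth of axons and for liver disease, stood at 4.57, 5.31 and 4.11 FPKM in epithelial and at 4.45, 3.69 and 4.75 FPKM in fiber libraries. KLF7, known from sensory neurons, stood at 2.57, 3.44 and 3.82 FPKM and at 3.09, 2.36 and 3.65 FPKM. Both genes' groups overlapped, and the log2 fold changes of −0.12 (95% interval −0.44 to 0.21) and −0.11 (−0.57 to 0.35) were not called (adjusted p = 0.464 and 0.626 by limma). Relative to the median gene they were 0.49 and 0.50, of which only that of KLF6 was called higher (adjusted p = 0.0111 and 0.0526 by limma), so the direction of both depends on the scaling. The ratio of KLF6 to KLF7 was 1.47 ± 0.358 and 1.43 ± 0.132 (exact permutation p = 1, adjusted 1).

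Of the listed genes upstream of KLF and SP proteins (the MAP2K5 and MEF2 pathway and ubiquitin ligases), 9 were tested. Of these 5 fell and 1 rose, near the background of 57.7% lower and 13.1% higher. Their median was −0.51. Relative to the median gene 2 were lower and 2 higher, beside 29.3% and 30.2% of all tested entries. The largest changes were those of MEF2A, an activator of KLF genes in muscle and endothelium (−1.46), WWP1, a ligase of KLF5 (−1.14), MEF2D (−0.84) and RNF4, a SUMO-targeted ligase (−0.58). The 1 that rose, named after its values were seen, was FBXW7, a ligase of KLF5 (0.55). KLF5 itself was at the floor in all 6 libraries.

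SP4 dominated the SP family in lens epithelial cells. SP4, SP3 and SP1 fell in fiber cells, and SP2 was not called. SP4, known mainly from neurons and photoreceptors, stood at 10.4, 9.33 and 10.2 FPKM in epithelial and at 3.99, 3.48 and 4.32 FPKM in fiber libraries. The groups were far apart, with a log2 fold change of −1.33 (SE 0.11, adjusted p = 2.10e-05 by limma) and −0.72 relative to the median gene. SP3, an activator or repressor depending on its SUMO modification, stood at 2.39, 3.76 and 3.54 FPKM and at 0.920, 0.942 and 1.31 FPKM. It fell by 1.51 on the log2 scale (SE 0.21, adjusted p = 0.000309 by limma) and was −0.91 relative to the median gene, with epithelial library 1 the lowest of its group but still above all fiber libraries.

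SP1, the general activator at GC boxes, stood at 3.84, 3.60 and 3.95 FPKM in epithelial and at 2.02, 2.47 and 1.86 FPKM in fiber libraries. The groups did not overlap, and SP1 fell by 0.82 on the log2 scale (SE 0.14, adjusted p = 0.000723 by limma), which was −0.21 relative to the median gene and not called there. SP2, which unlike SP1 works largely through CCAAT boxes together with NF-Y in mouse cells, stood at 2.14, 1.91 and 2.05 FPKM in epithelial and at 2.57, 1.96 and 2.60 FPKM in fiber libraries. Its groups overlapped, and the log2 fold change of 0.21 (95% interval −0.13 to 0.55, adjusted p = 0.229 by limma) was not called, but relative to the median gene it was 0.82 (adjusted p = 0.000728 by limma) and was called higher.

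SP2 was the least abundant of these 4 SP genes in epithelial cells and came next after SP4 in fiber cells, where its mean of 2.38 ± 0.360 FPKM was within the spread of SP1 at 2.12 ± 0.319 FPKM. SP4 held 51.3 ± 2.57% of the summed SP level in epithelial and 40.5 ± 2.25% in fiber cells, and SP2 held 10.4 ± 0.608% and 24.5 ± 2.76%. The ratio of SP2 to SP4 was 0.203 ± 0.00291 in epithelial and 0.603 ± 0.0403 in fiber libraries. The ratios of SP2 to SP1 (0.535 ± 0.0204 and 1.15 ± 0.320) and to SP3 (0.660 ± 0.207 and 2.28 ± 0.446) moved in the same direction, and all 3 separated the cell types (exact permutation p = 0.1, adjusted 0.160, for each). All 3 contain SP2, so they are not independent results. No share of separating ratios over gene pairs in general was computed. The ratio of SP4 to SP3 overlapped between the cell types (3.24 ± 0.985 and 3.77 ± 0.530, exact permutation p = 0.5, adjusted 0.571). That of SP1 to SP3 overlapped too (1.23 ± 0.339 and 2.08 ± 0.615, exact permutation p = 0.2, adjusted 0.291). The ratio of SP4 to SP1 was lower in every fiber library (2.63 ± 0.0688 and 1.90 ± 0.465, exact permutation p = 0.1, adjusted 0.160).

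**Figure D3:**
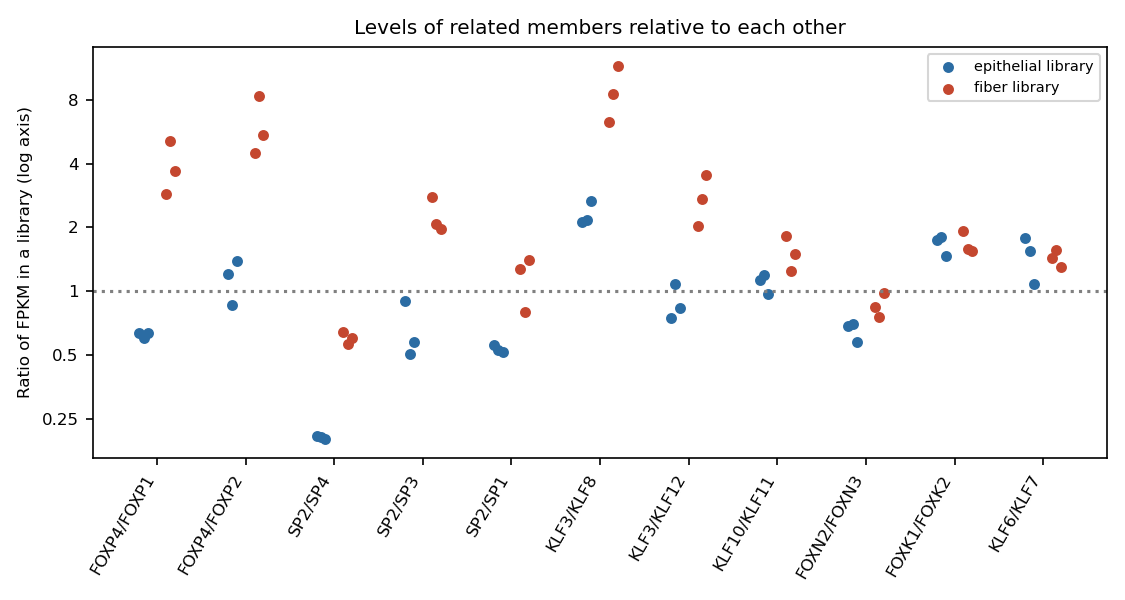
Ratio of the FPKM of a pair of related members in each library, on a log axis (blue, 3 epithelial libraries; red, 3 fiber libraries); the dotted line marks equal levels. FOXP4/FOXP1 and the 3 SP2 ratios are higher in every fiber library than in any epithelial library, whereas FOXK1/FOXK2 and KLF6/KLF7 overlap.

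Of 8 tested genes listed as targets of KLF and SP proteins 6 fell and 1 rose, beside 57.7% and 13.1% of all tested entries. Their median was −1.26. Relative to the median gene 5 were lower and 1 higher, beside 29.3% and 30.2% of all tested entries. Among the largest changes were those of TK1, a thymidine kinase of S phase (−3.72), CCND1, cyclin D1 (−1.88), and VEGFA, an angiogenic growth factor (−1.64). The 1 that rose, named after its values were seen, was TXNIP, an inhibitor of thioredoxin (1.22, SE 0.27), which is on the FOXO target list too. TK1 and CCND1 belong to genes of proliferating cells, as do most of the FOXM1 targets above. Over the 8 lists of pathway genes together, which hold 107 different symbols, 89 genes were tested, of which 61 (68.5%) fell and 7 (7.87%) rose, beside 57.7% and 13.1% of all tested entries. Relative to the median gene 41 (46.1%) were lower and 18 (20.2%) higher, beside 29.3% and 30.2%.

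**Figure D4:**
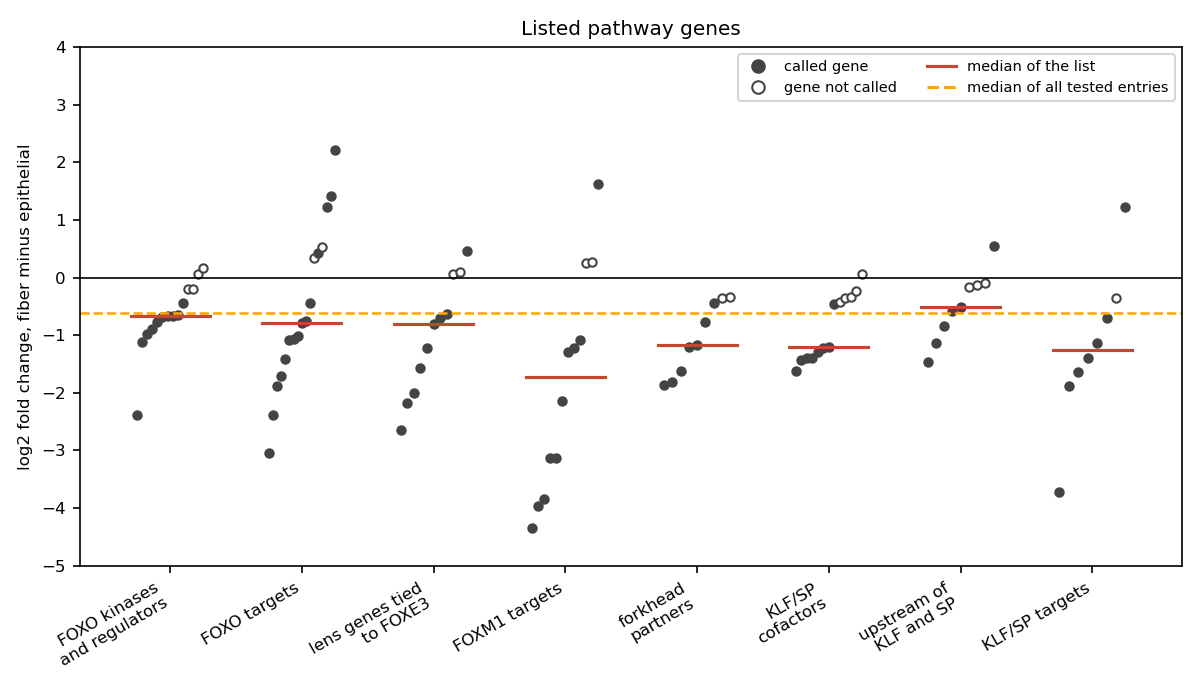
Log2 fold change (fiber minus epithelial) of each tested gene in the 8 pathway lists; filled points were called by limma, open points were not, red lines are list medians and the dashed line is the median of all tested entries (−0.62). The FOXM1 targets have the lowest median (−1.72), and the list of genes acting on FOXO proteins (−0.67) lies near the dashed line.

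The order of levels among the members changed with the cell type. In lens epithelial cells FOXO3 (10.2 ± 0.418 FPKM), SP4 (9.98 ± 0.574 FPKM) and FOXJ2 (8.96 ± 0.775 FPKM) led, and FOXO3 and SP4 did not differ beyond their spread. In lens fiber cells KLF3 (7.03 ± 0.891 FPKM) led and stood clear of FOXJ2, FOXO3 and KLF6, at 4.45 ± 0.339, 4.33 ± 0.629 and 4.29 ± 0.543 FPKM, which did not differ from each other beyond their spread. FOXP4, at 3.997 ± 0.329 FPKM, followed them, having ranked below FOXN2 in epithelial cells. FOXP1 went the opposite way: its mean was above those of FOXM1, FOXK1 and FOXN2 in epithelial cells, and in fiber cells only FOXP2 had a lower mean among the expressed forkhead genes.

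**Figure D5:**
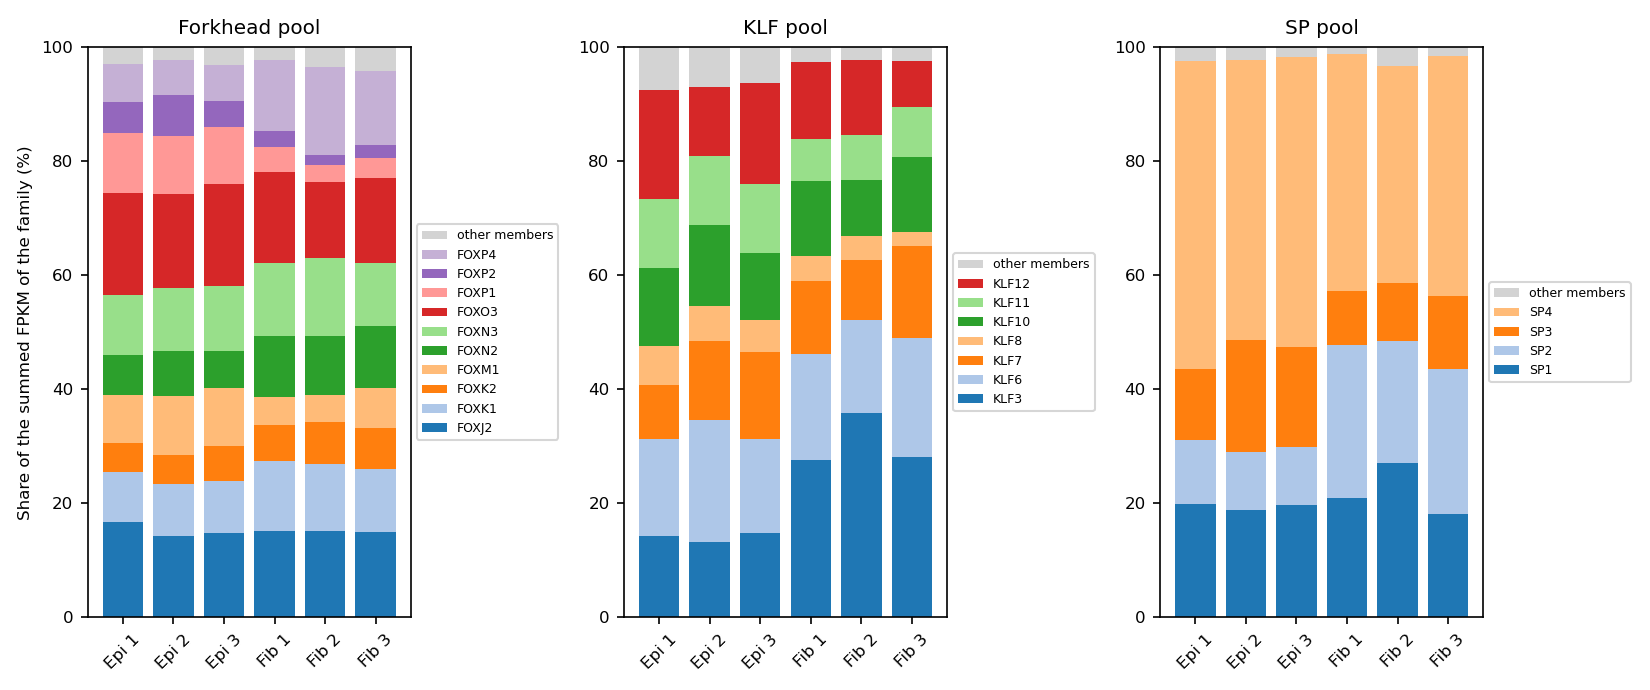
Share of each expressed member in the summed FPKM of its family, in percent, for each of the 3 epithelial (Epi) and 3 fiber (Fib) libraries; grey stands for the members below 1 FPKM. KLF3 grows from 14.05% to 30.5% of the KLF sum, SP2 from 10.4% to 24.5% of the SP sum and FOXP4 from 6.37% to 13.6% of the forkhead sum, as means of 3 libraries.

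The remaining 26 members were below 1 FPKM in the mean of both cell types. Of these, 10 were at the floor of 0.0001 FPKM in all 6 libraries: the forkhead genes FOXA1 and FOXA2 of endoderm, FOXF1 and FOXF2 of visceral mesenchyme, FOXL2 of the ovary and eyelid and FOXN1 of the thymus, together with KLF5 of gut and skin epithelium and SP6, SP8 and SP9 of teeth, limbs and forebrain. The other 16 were detected in at least 1 library, with no library above 1.24 FPKM, and most of them lay nearer to 0 than to 1 FPKM. In 8 of the 16 the fiber libraries were all below the epithelial libraries, in 1 all above, and in 7 they overlapped. Among all 4251 entries detected but below 1 FPKM in both cell types, 33.8% had all fiber libraries below and 6.54% all above.

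The members below 1 FPKM in both cell types that are named with values, here and above, were chosen after their values were seen. FOXL3, known from germ cells of fish, was the 1 member above in all fiber libraries, at 0.535, 0.573 and 0.452 FPKM against 0.0607, 0.131 and 0.0115 FPKM in epithelial libraries. It was not tested at the filter used, and with no filter on low values its log2 fold change was 1.94 (SE 0.29, adjusted p = 0.00460 by limma). KLF2, the shear stress factor of endothelium, stood at 0.105, 0.216 and 0.113 FPKM in epithelial libraries and at the floor in 2 of 3 fiber libraries, with 0.0231 FPKM in the remaining one. KLF4, the pluripotency and barrier factor, was at most 0.165 FPKM in any library, with 3 of 6 libraries at the floor. SP5, a Wnt target, stood at 0.413, 0.435 and 0.358 FPKM against 0.124, 0.113 and 0.0530 FPKM. At these levels FPKM rest on few fragments, and the depth behind them is unknown.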

How the data were processed

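RNA-seq was measured in 6 libraries of E13 chick lens cells, 3 of epithelial and 3 of fiber cells, each a pool of lenses given as a biological replicate. The authors prepared stranded total RNA libraries, trimmed reads with cutadapt and mapped them to galGal6 with HISAT2 and Bowtie2, and used StringTie to assemble transcripts; they name edgeR for the expression estimates, and versions are not given in the sources used here. The deposited values are FPKM per gene, with 0.0001 in place of 0. Columns with the authors' averages, fold changes, p-values and q-values were not used. Depth is unknown, since FPKM carry no counts of reads, and the precision of a value was taken from the replicates.

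Entries whose libraries averaged 0.5 FPKM or more were fitted as log2(FPKM + 0.1) with limma 3.58.1 in R 4.3.3 (empirical Bayes moderation with a mean-variance trend, cell type as the only factor), and Benjamini-Hochberg adjustment was made over all 10818 tested entries. Calls used the study's cut-offs for adjusted p and fold change with a different test, so their numbers are not those of the study. A second fit used values centred on each library's median. Single ratios were compared by the two-sided exact permutation test over 10 arrangements. The scripts' calls were tested on simulated data. Family members, pathway lists and tests were chosen with earlier results of these data known. Values by library are given for members of at least 1 FPKM in either cell type, with full statistics for called members among the 10 largest changes in each direction; up to 4 called genes with the largest changes are named per list, and some genes that this covers are not reported here. Alternatives were other pseudocounts (1 and 0.01 FPKM), filters (none, and 1 FPKM) and scalings (median, 75th percentile, quantile), limma without trend or with robust moderation, a replicate block, other limits for expressed (0.5 and 2 FPKM) and leaving out each library. No sequence of the files' genome build was used here. Figures were drawn with matplotlib 3.10.9.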

Additional observations from a re-analysis of the deposited data

How the results depend on the processing

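FOXM1, FOXO3, FOXP1, FOXP2, KLF3, SP3 and SP4 kept their direction and call in all 17 alternative fits. Leaving out any one library left 14 to 16 members lower and 1 higher (15 and 1 with all libraries), 58 to 64 listed pathway genes lower and 6 to 7 higher, and 21 to 22 members expressed in epithelial and 18 to 19 in fiber cells; KLF7 was between −0.27 and 0.0520, turning positive without epithelial replicate 3 or fiber replicate 2, and the cause was not tested.

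Scaling moved the calls most. Members called higher numbered 4 with median centring, 2 with 75th percentile scaling, 6 with quantile normalization and 2 with no filter, which brought FOXL3 into the test. Members called lower numbered 6 with median centring, 11 with 75th percentile scaling, 7 with quantile normalization and 21 with no filter. Listed genes called higher numbered 18, 11 and 12 under the 3 scalings, and those called lower 38 with quantile normalization. With median centring the sign turned for FOXK1 (0.00147), FOXN2 (0.20), KLF6 (0.49), KLF7 (0.50) and KLF10 (0.33), with 75th percentile scaling for KLF6 (0.18), KLF7 (0.18) and KLF10 (0.0144), and with quantile normalization for FOXK2 (0.12), FOXN2 (0.21), KLF6 (0.43), KLF7 (0.56), KLF8 (0.15), KLF10 (0.40), KLF11 (0.0289) and KLF12 (0.0178). Median centring and quantile normalization set the medians of the libraries equal by construction, and 75th percentile scaling the upper quartile.

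Libraries of the same replicate number correlated at 0.0858, 0.0659 and 0.0666 in their deviations from the group means. Every library correlated best with its own number, a hint of pairing from the data. The paper describes the lenses of each replicate as dissected into both cell types, but no label ties the numbers to a shared origin. Correlations under 0.1 cannot decide this, and the main fit did not take the libraries as pairs. A replicate block changed 1 member's call, KLF12 (−0.63, called lower, adjusted p = 0.0405 by limma). A replicate block with median centring gave 5 members higher and 6 lower and 18 listed genes higher and 40 lower, with FOXK1 (0.00147), FOXN2 (0.20), KLF6 (0.49), KLF7 (0.50) and KLF10 (0.33) turned as without the block. FOXN2 was not called with a pseudocount of 1 FPKM (−0.33), and KLF12 was (−0.49). The unknown depth limits every value below 1 FPKM.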
